A study of Mus musculus with 16 samples.

Results

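The integrated stress response genes were Atf4, Atf5, Ddit3, Trib3, Ppp1r15a, Chac1, Sesn2, Asns, Psat1 and Phgdh, 10 of the 32285 genes in the matrices. All 10 were taken by name and were present. They were chosen with earlier results of these data known, so shares and medians of the set beside all genes are a description. They were measured by droplet single-cell RNA-seq of the 3′ ends of transcripts in mouse bone marrow stromal cell cultures, adherent marrow cells kept in mineralizing medium, at day 21 with 10 mM beta-glycerophosphate. The cells came from male C57BL/6J littermates, and every animal carried a floxed first exon of Fgf23, the gene of a phosphate-lowering hormone made by bone. WT cells were Dmp1+/+ without Cre, Fgf23cKO cells were Dmp1+/+ with Dmp1-cre, Dmp1KO cells were Dmp1-/- without Cre, and Dmp1KO/Fgf23cKO cells were Dmp1-/- with Dmp1-cre. Dmp1 encodes a matrix protein of osteocytes, and the Cre was driven by its promoter, which is active mainly in late osteoblasts and osteocytes. The matrices held 11 tagged cultures (3 WT, 3 Fgf23cKO, 2 Dmp1KO and 3 Dmp1KO/Fgf23cKO), and the first Dmp1KO culture is not analysed here. The cultures of 1 genotype shared 1 droplet reaction, so an effect of the reaction and one of the genotype cannot be told apart, and p-values measure the spread between cultures.

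The integrated stress response begins when kinases that sense unfolded protein, amino acid shortage, double-stranded RNA or heme shortage phosphorylate the initiation factor eIF2. General translation then falls while a few messages, Atf4 among them, are translated better, and ATF4 with its partners switches on genes for amino acid supply, feedback and, when stress persists, cell death. In bone ATF4 is known as a factor of osteoblast differentiation, and in macrophages the pathway is known to respond to metabolic and endoplasmic reticulum stress. RNA levels do not show the phosphorylation of eIF2 or the translation of Atf4, which were not measured.

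The promoters of the genes are shown first because ATF4 and CHOP, the protein of Ddit3, bind a shared composite element. RefSeq windows from 250 bases before to 50 bases after a transcript start (GRCm38.p6) covered all 10 genes in 12 windows. The letters TGATGNAA, or TTNCATCA on the other strand, stood in 3 of the 12 windows and in 1304 of all 32851 windows of that length (3.97%). The stretches that hold them follow, 5′ to 3′ on the strand of the gene, with the matched letters in capitals.
Chac1: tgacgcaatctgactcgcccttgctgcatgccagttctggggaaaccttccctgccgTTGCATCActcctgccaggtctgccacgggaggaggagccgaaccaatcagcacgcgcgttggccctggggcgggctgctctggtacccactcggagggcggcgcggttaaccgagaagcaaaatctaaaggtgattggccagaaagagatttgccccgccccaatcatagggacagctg
Asns: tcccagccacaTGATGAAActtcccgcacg
Trib3: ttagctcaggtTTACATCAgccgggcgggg
The Chac1 stretch lies at chr2:119350992-119351228 on the plus strand, just before the annotated gene, and its match began 193 bases before the RefSeq transcript start. The Asns stretch lies at chr6:7693214-7693243 on the minus strand, within the annotated gene, with the match beginning 23 bases before the RefSeq start. The Trib3 stretch lies at chr2:152344028-152344057 on the minus strand, with the match beginning 15 bases after that start. A match describes the letters only, no match in the other windows says nothing about binding, and a 3′ assay does not read promoters.

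Cells were clustered anew into 20 clusters and named by marker genes. Macrophage-like cells were 9190 of the 14577 tagged cells (3413 WT, 924 Fgf23cKO, 3254 Dmp1KO and 1599 Dmp1KO/Fgf23cKO). Each cluster of this class had 14 or 15 of the 15 macrophage markers detected by the naming rule. Summed over the class, every marker of the contractile, fibroblastic and osteoblast lists also had UMIs, so detection alone does not define it. The genotypes filled different clusters of this class: cluster 0 held 2845 WT cells, cluster 1 held 499 Fgf23cKO and 1255 Dmp1KO/Fgf23cKO cells, and clusters 4, 3 and 1 held 958, 897 and 730 Dmp1KO cells. Their depth differed as well, with median UMIs per macrophage-like cell of 7204 to 7540.5 in WT, 34467.5 to 38031.5 in Fgf23cKO, 17965.5 to 18654.5 in Dmp1KO and 34586 to 35764.5 in Dmp1KO/Fgf23cKO cultures. Mitochondrial RNA took 2.65 to 2.78%, 3.56 to 3.72%, 2.92 to 2.96% and 3.70 to 4.01% of UMIs in the same order, and the part of depth and mitochondrial share in the results below was not tested beyond the thinning given with them. The targeted gene Dmp1 had, over all cells, 442 to 1770 UMIs per tagged WT culture, 152 to 1177 per Fgf23cKO culture, 0 and 3 in the Dmp1KO cultures and 26 to 76 per Dmp1KO/Fgf23cKO culture, while Fgf23 had 5, 4 and 0 UMIs in the WT cultures, 8, 1 and 0 in the Fgf23cKO cultures and at most 2 in any other tagged culture. The Fgf23 counts are too few to check the labels, and their highest value lies in an Fgf23cKO culture. Levels below are CPM, the UMIs of a gene per 1000000 UMIs of the class in a culture, fold changes are log2 with their standard error from edgeR's quasi-likelihood test on summed counts, and a gene rose or fell when its Benjamini-Hochberg adjusted p over all genes tested was under 0.1.

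In macrophage-like cells 9 of the 10 genes were higher in Dmp1KO than in WT cultures and none was lower, where 33.5% of the 13342 genes tested were higher and 31.9% lower. The median log2 fold change of the 10 genes was 1.08, against 0.01 over all genes tested. For each of these 9 genes both Dmp1KO cultures lay above all 3 WT cultures, and the remaining gene, Sesn2, overlapped. The share of all genes tested that did not overlap is not given here, so this only describes the cultures.

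Among the transcription factors, Atf4, the central activator of the pathway, was at 115, 92.7 and 97.6 CPM in the WT cultures and at 143 and 142 CPM in the Dmp1KO cultures. Its rise was small and did not overlap (log2 fold change 0.61 ± 0.12, adjusted p = 0.000363). Atf5, a relative of ATF4 that is also translated under stress, was at 25.1, 25.4 and 26.9 CPM in WT and at 48.5 and 47.2 CPM in Dmp1KO cultures, tight in both groups (1.00 ± 0.10, adjusted p = 8.71e-07). Ddit3, which encodes CHOP, a factor tied to cell death under lasting stress, was at 76.0, 57.8 and 60.8 CPM in WT and at 134 and 130 CPM in Dmp1KO cultures (1.16 ± 0.17, adjusted p = 3.52e-05). A second gene ID of the name Ddit3 overlaps it on the same strand, and Mars and Gm4189 overlap on the other. Atf5 (ENSMUSG00000038539, chr7:44812256-44816658, minus strand, GRCm38) is overlapped on the other strand by Nup62 and Il4i1, Ppp1r15a by Tulp2 and Psat1 by Gm3329, and Gm12981 overlaps Sesn2 on its own strand. The sources used here do not say whether reads were counted by strand, so reads at these places are uncertain. The second Ddit3 ID held 0 UMIs in all cells.

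The feedback and effector genes followed with unequal sizes. Trib3, a pseudokinase that restrains ATF4 and CHOP, was at 9.65, 4.49 and 4.74 CPM in WT and at 21.7 and 20.1 CPM in Dmp1KO cultures, the second largest fold of the set (1.98 ± 0.33, adjusted p = 0.000109). Ppp1r15a, whose product GADD34 brings a phosphatase to eIF2, was at 52.8, 48.3 and 46.0 CPM in WT and at 60.3 and 57.2 CPM in Dmp1KO cultures, a small difference without overlap (0.38 ± 0.07, adjusted p = 0.00042). Chac1, a glutathione-degrading enzyme, was near the floor of the assay, with 10 to 14 UMIs per WT culture and 70 and 71 in the Dmp1KO cultures. Its levels were 1.76, 1.12 and 1.35 CPM in WT and 2.16 and 2.13 CPM in Dmp1KO cultures (0.78 ± 0.35, adjusted p = 0.0705), and 8 of 27 alternative settings lost the call. Sesn2, a leucine-sensing inhibitor of mTORC1, was at 13.7, 10.1 and 10.1 CPM in WT and at 10.7 and 11.1 CPM in Dmp1KO cultures, which overlap (0.10 ± 0.15, adjusted p = 0.563).

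The amino acid enzymes were higher too. Asns, asparagine synthetase, was at 10.0, 8.72 and 7.93 CPM in WT and at 30.5 and 26.4 CPM in Dmp1KO cultures (1.82 ± 0.25, adjusted p = 2.13e-05). Phgdh, the first enzyme of serine synthesis, was counted 3, 5 and 7 times in the WT cultures and 122 and 117 times in the Dmp1KO cultures. In CPM these were 0.527, 0.432 and 0.677 against 3.77 and 3.52, the largest log2 fold change of the set (2.84 ± 0.45, adjusted p = 6.52e-05), resting on few WT UMIs. Psat1, the next enzyme of the same route, was at 3.51, 5.01 and 4.16 CPM in WT and at 9.67 and 8.99 CPM in Dmp1KO cultures (1.21 ± 0.19, adjusted p = 5.16e-05). All 3 enzymes kept their call under each of the 27 or 28 alternative settings run, among which the thinned fit did not test Psat1 and Phgdh. Library totals without TMM factors moved the median of all genes by -0.11 in this comparison and by 0.13 between Dmp1KO/Fgf23cKO and Dmp1KO, and kept the 9 calls of the first.

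**Figure D1:**
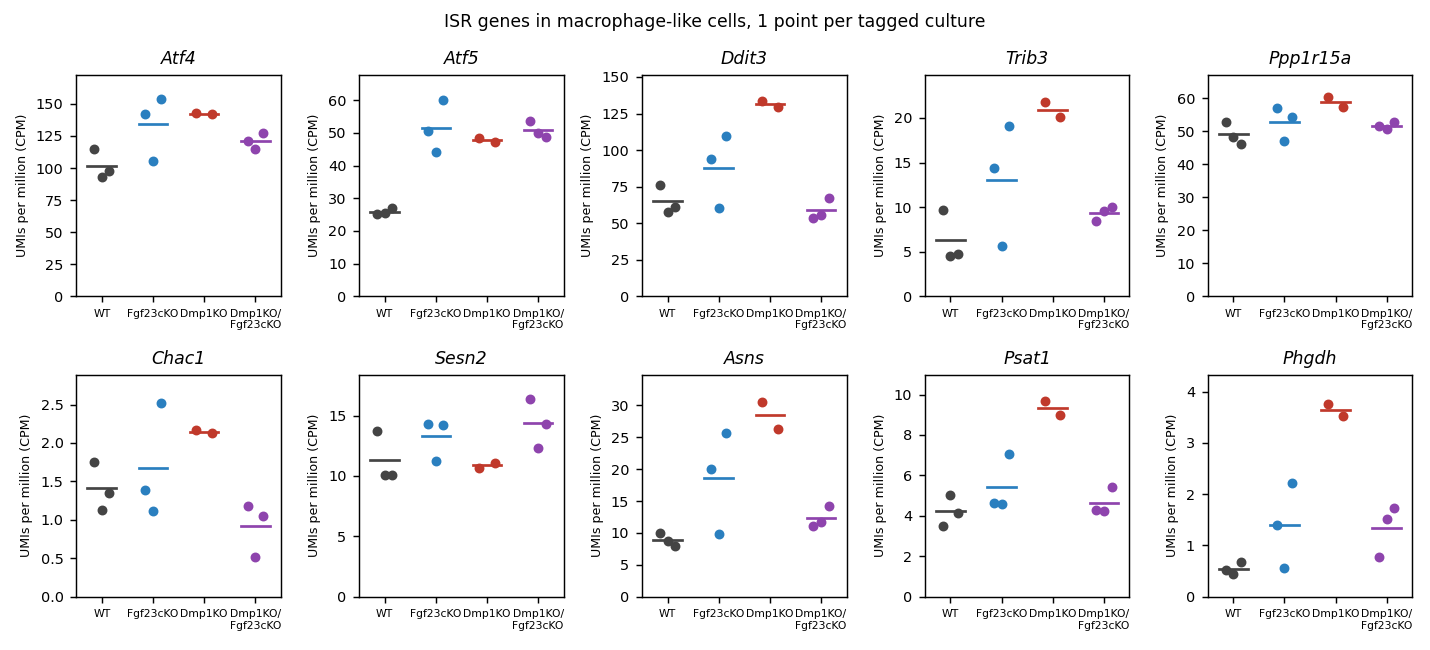
CPM of the 10 genes in each of the 11 tagged cultures, 1 panel per gene; points are cultures and bars are group means, with each vertical axis on its own scale. The 2 Dmp1KO cultures lie above the 3 WT cultures for every gene but Sesn2, and Fgf23cKO culture 2 lies below Fgf23cKO cultures 1 and 3 for Trib3, Asns and Phgdh.

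Several of these differences went with cluster 3, a macrophage-like cluster that Ddit3 and Trib3 help to define, so its levels are a description without a test. It held 897 Dmp1KO, 104 Fgf23cKO, 67 Dmp1KO/Fgf23cKO and 31 WT tagged cells, and its genes with the largest fold over other clusters were Cdkn1c, Tmem267, Fbxo32, Ddit3, Atp6v0d2, Trib3, Htr2b, Sgk1, Clba1 and Abcg1. Leaving these cells out, an alternative chosen after seeing the data, removes the cells in which Ddit3 and Trib3 were highest and takes them mostly from 1 genotype, so the values without them describe where the RNA lay and test nothing. The log2 fold changes between Dmp1KO and WT were then 0.39 ± 0.08 for Atf5, 1.33 ± 0.22 for Asns, 1.42 ± 0.17 for Psat1 and 2.24 ± 0.38 for Phgdh. They were 0.10 ± 0.08 for Atf4, 0.48 ± 0.28 for Trib3 and -0.33 ± 0.12 for Ddit3.

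In Fgf23cKO macrophage-like cells 6 of the 10 genes were higher than in WT and none was lower, where 25.8% of all genes tested were higher and 23.7% lower; the median of the 10 genes was 0.42 against 0.01 over all genes. Atf5 was at 50.6, 44.2 and 60.0 CPM in the Fgf23cKO cultures, above every WT culture (0.98 ± 0.10, adjusted p = 3.1e-06). The other 5 overlapped the WT cultures in at least 1 culture. Asns was at 20.1, 9.86 and 25.7 CPM (1.09 ± 0.27, adjusted p = 0.00441) and Trib3 at 14.3, 5.58 and 19.0 CPM (1.18 ± 0.35, adjusted p = 0.0145). For both genes Fgf23cKO culture 2 lay within the WT range and cultures 1 and 3 above it. Atf4 was at 142, 106 and 154 CPM (0.39 ± 0.11, adjusted p = 0.00961), Ddit3 at 93.7, 60.3 and 109 CPM (0.44 ± 0.16, adjusted p = 0.0421), and Phgdh at 1.39, 0.558 and 2.22 CPM (1.36 ± 0.54, adjusted p = 0.0537). The number of genes called was 8 without Fgf23cKO culture 2 and 4 without either Fgf23cKO culture 3 or WT culture 2.

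Between Dmp1KO/Fgf23cKO and WT macrophage-like cells 3 genes were higher and none lower, where 27.6% of all genes were higher and 28.0% lower. Atf5 again lay above every WT culture, at 53.7, 50.1 and 48.7 CPM (0.92 ± 0.10, adjusted p = 2.25e-06). Sesn2 (16.4, 12.3 and 14.3 CPM, overlapping WT; 0.34 ± 0.14, adjusted p = 0.0517) and Phgdh (0.775, 1.51 and 1.73 CPM, above WT; 1.17 ± 0.51, adjusted p = 0.0749) passed by little. The count was 6 without Fgf23cKO culture 2 or 3, whose spread enters the shared estimate, and 1 without WT culture 2 or 3. Ddit3 at 53.6, 55.9 and 66.9 CPM, Trib3 at 8.40, 9.56 and 10.1 CPM and Psat1 at 4.28, 4.21 and 5.41 CPM overlapped the WT cultures and did not pass.

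On the Dmp1-/- background 8 of the 10 genes were lower in Dmp1KO/Fgf23cKO than in Dmp1KO macrophage-like cells and none was higher, where 32.6% of all genes were lower and 27.0% higher. The median of the 10 genes was -1.27 against -0.03 over all genes. None of the 8 overlapped, but neither did Atf5 and Sesn2, which were not called. The share of all genes without overlap is not given for this comparison either, so this too only describes the cultures. Log2 fold changes were -1.67 ± 0.32 for Phgdh (adjusted p = 0.000485), -1.39 ± 0.21 for Asns (adjusted p = 6.87e-05) and -1.20 ± 0.16 for Psat1 (adjusted p = 1.91e-05). Among the regulators they were -1.34 ± 0.16 for Ddit3 (adjusted p = 8.03e-06), -1.35 ± 0.26 for Trib3 (adjusted p = 0.00058), -1.39 ± 0.32 for Chac1 (adjusted p = 0.00198), -0.40 ± 0.11 for Atf4 (adjusted p = 0.00699) and -0.36 ± 0.07 for Ppp1r15a (adjusted p = 0.000541). Atf5 (-0.08 ± 0.09, adjusted p = 0.476) and Sesn2 did not pass (0.24 ± 0.13, adjusted p = 0.127). Without cluster 3, again as a description, the values were -1.10 ± 0.19 for Asns, -1.51 ± 0.15 for Psat1, -2.07 ± 0.32 for Phgdh, -0.18 for Ddit3, 0.038 for Atf4 and 0.48 for Atf5. With cells thinned to 1300 UMIs 3 of the 7 genes still tested passed (Ddit3, Trib3 and Asns), Atf4 and Ppp1r15a lost their calls, and Chac1, Psat1 and Phgdh fell under the filter on low counts. This comparison shares the Dmp1KO cultures with the comparison to WT, so the values of both stand side by side and are not independent.

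**Figure D2:**
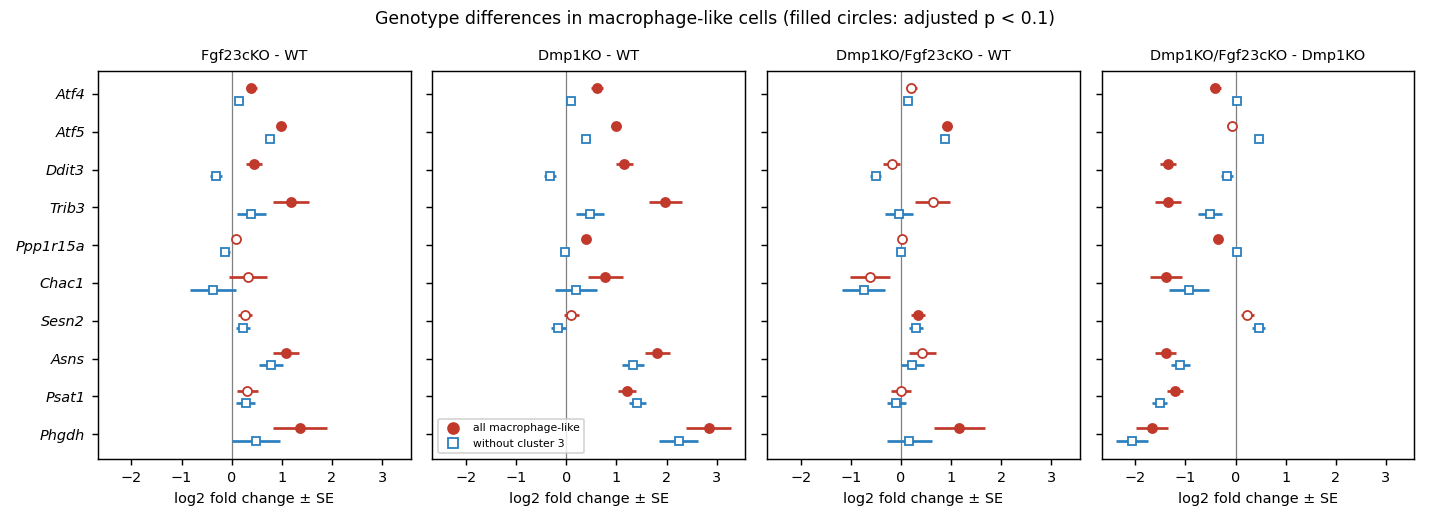
Log2 fold change (horizontal axis) with its standard error for each of the 10 genes in macrophage-like cells in the 4 comparisons between genotypes; red circles are all macrophage-like cells, open blue squares leave out cluster 3 and carry no test, and filled circles passed an adjusted p under 0.1. With all cells Atf5 lies between 0.92 and 1.00 in the 3 comparisons with WT and at -0.08 between Dmp1KO/Fgf23cKO and Dmp1KO, whereas Phgdh, Asns, Trib3 and Ddit3 lie right of 0 in Dmp1KO against WT and left of 0 in Dmp1KO/Fgf23cKO against Dmp1KO.

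The difference between genotypes with and without Dmp1-cre depended on Dmp1 status for 9 of the 10 genes, as the interaction term tested directly. Each of the 9 was lower, where 30.5% of all genes tested were. Whether Fgf23 was deleted in macrophage-like cells was not tested. The term was -3.03 ± 0.62 for Phgdh, -2.53 ± 0.44 for Trib3 and -2.48 ± 0.34 for Asns, with a median of -1.62 over the 10 genes against -0.02 over all genes. It was -1.79 ± 0.23 for Ddit3 and -1.06 ± 0.13 for Atf5, which rose against WT in Fgf23cKO, in Dmp1KO and in Dmp1KO/Fgf23cKO cultures. Sesn2 was the exception (-0.03 ± 0.19, adjusted p = 0.924). The 9 calls held with each culture left out in turn.

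The rest of the pathway did not move as a block in Dmp1KO macrophage-like cells, where 33.5% of all genes tested were higher and 31.9% lower than in WT. Of 6 kinases and eIF2 regulators 4 were higher and 1 lower than in WT: Eif2s1, the phosphorylated subunit of eIF2, rose (0.62 ± 0.08), as did Eif2ak4, which encodes the amino acid sensor GCN2 (0.46 ± 0.06), while Eif2ak3, which encodes the endoplasmic reticulum sensor PERK, fell (-0.68 ± 0.08; adjusted p at most 2.16e-05 for the 3). Of 9 tested among 12 other ATF4 targets and stress factors 3 were higher and 5 lower. Eif4ebp1, a translation repressor, rose (0.86 ± 0.09, adjusted p = 1.8e-06), and Vldlr, a lipoprotein receptor, fell (-3.20 ± 0.43, adjusted p = 1.47e-05). Vldlr was near the floor of the assay, at group means of 0.213 CPM in Dmp1KO and 2.28 CPM in WT cultures. Gdf15, a secreted stress cytokine, fell by 1.84 ± 0.13 (adjusted p = 3.49e-08) in Dmp1KO against WT cultures and was higher in Dmp1KO/Fgf23cKO than in Dmp1KO cultures by 2.93 ± 0.13 (adjusted p = 7.88e-10), each the opposite sign to Ddit3 and Trib3 in the same comparison.

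The lists of amino acid metabolism and translation held more higher than lower genes in the same comparison, with the same shares over all genes (33.5% higher, 31.9% lower). Of 8 tested among 12 enzymes of serine, glycine, one-carbon, proline and transsulfuration metabolism 5 were higher and 1 lower, with Mthfd2, a mitochondrial folate enzyme, at 1.12 ± 0.17 (adjusted p = 4.31e-05) and Pck2, mitochondrial PEP carboxykinase, at 0.98 ± 0.11 (adjusted p = 2.05e-06). Shmt1, cytosolic serine hydroxymethyltransferase, was the 1 that fell (-0.89 ± 0.25, adjusted p = 0.00716), at low group means of 1.42 CPM in Dmp1KO and 2.71 CPM in WT cultures. Of 20 cytosolic aminoacyl-tRNA synthetases 10 were higher and 3 lower, the largest rises being those of Cars (1.07 ± 0.13), Eprs (1.03 ± 0.08) and Mars (0.98 ± 0.12; adjusted p at most 5.83e-06). The list medians were 0.30 and 0.15 against 0.01 over all genes. Of 7 mitochondrial chaperones and proteases 4 were higher and none lower, Clpp (0.73 ± 0.07, adjusted p = 8.78e-07) most. Dele1, which relays mitochondrial stress, rose by 0.34 ± 0.14 (adjusted p = 0.0403), with Dmp1KO and WT cultures that overlap (means of 11.5 and 9.62 CPM). Hspa9 rose by 0.25 ± 0.10 (adjusted p = 0.0369) and stood at -0.18 without cluster 3.

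Amino acid transporters and endoplasmic reticulum genes were called in both directions, where 33.5% of all genes tested were higher and 31.9% lower. Of 10 transporters 3 were higher and 5 lower, among them Slc7a11, the cystine importer (-1.03 ± 0.11, adjusted p = 1.01e-06), and Slc6a9, a glycine transporter (-2.16 ± 0.48, adjusted p = 0.00133). Slc6a9 was near the floor of the assay, at group means of 0.304 CPM in Dmp1KO and 1.65 CPM in WT cultures. Of 17 endoplasmic reticulum chaperones and genes of the ATF6 and XBP1 branches 6 were higher and 7 lower, near the shares over all genes, with Pdia4, a disulfide isomerase (-1.54 ± 0.07), Xbp1 (-0.99 ± 0.06) and Hyou1, a chaperone (-0.84 ± 0.07), falling most (adjusted p at most 6.55e-08). Pdia4 and Xbp1 fell against WT in Fgf23cKO (-1.18 and -0.76) and Dmp1KO/Fgf23cKO cultures (-1.28 and -0.91) too, with shared WT cultures. Of 14 tested among 15 genes of dissociation and immediate early stress 4 were higher and 7 lower in Dmp1KO than in WT cultures, with Egr1 at -1.76 ± 0.17 and Jund at 0.80 ± 0.08. Summed, that list stood at 2549 to 2599 CPM in Dmp1KO, 2868 to 3232 in WT, 2953 to 3367 in Fgf23cKO and 3268 to 3338 in Dmp1KO/Fgf23cKO cultures. The part of dissociation in the results was not tested. The 8 osteoclast markers, 1 of them at 0, summed to 183 to 202 CPM in Dmp1KO, 115 to 178 in Fgf23cKO, 104 to 129 in WT and 83.3 to 84.6 in Dmp1KO/Fgf23cKO macrophage-like cells. The 11 markers of osteoblasts or osteocytes, none of them at 0, summed to 24.5 to 28.1 CPM in Dmp1KO, 115 to 133 in WT, 166 to 173 in Fgf23cKO and 241 to 244 in Dmp1KO/Fgf23cKO macrophage-like cells, lowest in Dmp1KO and highest in Dmp1KO/Fgf23cKO cultures. Among them Dmp1 had 12 to 19 UMIs per WT and 18 to 26 per Fgf23cKO culture in these cells and 0 in the 5 Dmp1-/- cultures. The part of these markers in the results was not tested.

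In the other comparisons the synthetases differed in direction. Between Dmp1KO/Fgf23cKO and Dmp1KO cultures 11 of the 20 were lower and 2 higher (32.6% and 27.0% over all genes), with Mthfd2 at -1.04 ± 0.15 (adjusted p = 4.21e-05), Pck2 at -0.92 ± 0.10 (adjusted p = 1.91e-06) and Clpp at -0.64 ± 0.07 (adjusted p = 2.05e-06). Fgf23cKO cultures had 13 synthetases higher and 3 lower than WT (25.8% and 23.7% over all genes). Dmp1KO/Fgf23cKO cultures had 8 higher and 6 lower than WT (27.6% and 28.0%), including Sars, which fell (-0.97 ± 0.10, adjusted p = 2.73e-06).

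The mean of the 10 genes' standardized log2 CPM ordered the macrophage-like cells of the 11 cultures. It was 1.30 and 1.14 in Dmp1KO, 0.40, -0.69 and 0.94 in Fgf23cKO, -0.23, -0.52 and 0.00 in Dmp1KO/Fgf23cKO, and -0.41, -0.999 and -0.94 in WT cultures, so the 2 Dmp1KO cultures were highest and 2 WT cultures lowest, and Fgf23cKO culture 2 and Dmp1KO/Fgf23cKO culture 2 lay among the WT cultures. Pearson's r of single genes with this mean, which includes the gene itself and so raises r, was highest for Atf4 (0.988), Asns (0.986) and Trib3 (0.975). It was lowest for Sesn2 (0.364). Outside the set, the genes whose log2 CPM followed the mean most closely over the 11 cultures were Asna1 (r = 0.979), which inserts tail-anchored proteins into membranes, Sertad3 (0.979), Atp8b4 (0.978), Ciapin1 (0.972) and Cdc5l (0.972). With 340 of 13332 genes above 0.9, such a likeness is common in these cultures and is a description of points that share genotype and reaction.

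Across clusters the genes did not peak together. This is a description without a test, because 46 of the member and list genes were among the 3000 variable genes that formed the clusters. Cluster 3 was highest for Ddit3 (381 CPM), Atf4 (288 CPM), Trib3 (60.4 CPM) and Ppp1r15a (111 CPM). The next macrophage-like cluster was cluster 6, led by Slc7a11 and Dkk2, with 147, 215, 30.05 and 63.6 CPM for the same genes, while cluster 0, which held most WT cells, had 29.98, 72.9, 0.642 and 37.6 CPM. With genotypes pooled, the amino acid enzymes peaked in stromal cells instead. In osteoblast-like cluster 16 Asns was at 76.7 CPM, Psat1 at 54.3 CPM, Phgdh at 54.0 CPM and Chac1 at 18.2 CPM, against 53.0, 6.69, 7.44 and 4.61 CPM in cluster 3, with the genotypes pooled. Within genotypes the order of Asns was not the same, at 53.2 CPM in cluster 16 and 55.1 CPM in cluster 3 in WT cells, 43.3 and 52.4 CPM in Fgf23cKO cells, and 104 and 51.6 CPM in Dmp1KO/Fgf23cKO cells. Psat1 was also at 43.3 and 33.6 CPM in the cycling clusters 8 and 11, and Atf5 reached 542 CPM in contractile stromal-like cluster 9. Within cluster 3 Asns was close in the genotypes (55.1 CPM in 31 WT cells, 52.4 in Fgf23cKO, 53.3 in Dmp1KO and 51.6 in Dmp1KO/Fgf23cKO cells), whereas within cluster 6 it was at 68.4 CPM in Dmp1KO and between 34.0 and 36.2 CPM in the other genotypes.

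**Figure D3:**
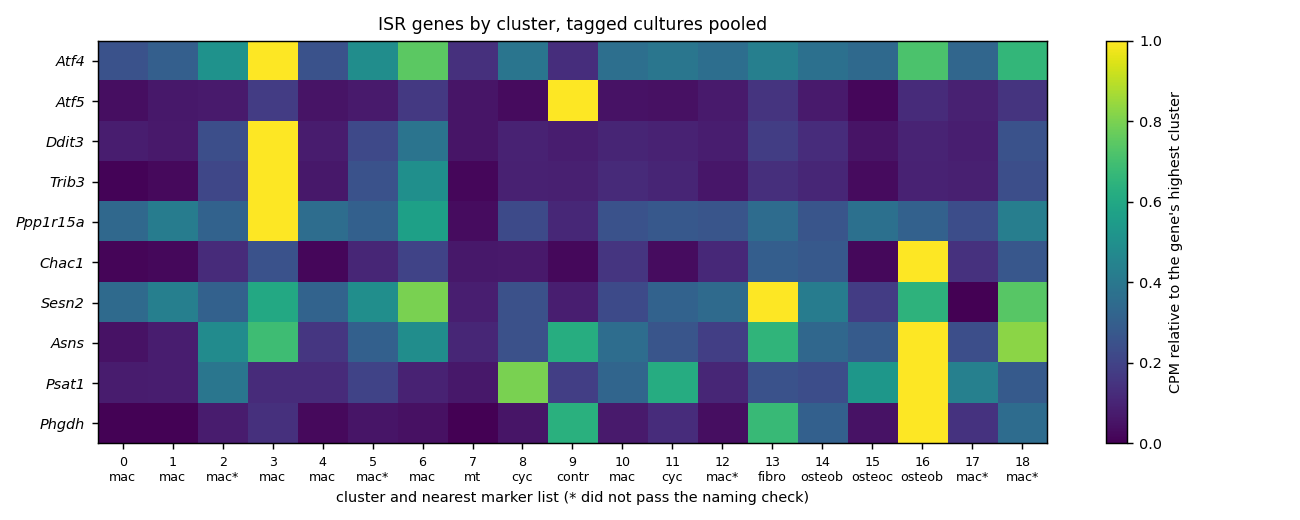
Level of each of the 10 genes in clusters of at least 50 cells, as CPM relative to the gene's highest cluster (color scale from 0, dark, to 1, yellow), tagged cultures pooled, with the nearest marker list under each cluster. Cluster 3 is highest for Atf4, Ddit3, Trib3 and Ppp1r15a, cluster 16 for Asns, Psat1, Phgdh and Chac1, cluster 9 for Atf5 and cluster 13 for Sesn2.

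Contractile stromal-like cells expressed Tagln, Tpm2 and Cald1 (18 to 65 cells per culture). Their cluster, 9, was shallow, with a median of 2825.5 UMIs per cell over tagged and untagged samples. Only 5 of the 10 genes passed the filter on low counts there. Atf5 rose in all 3 mutant genotypes: it was at 228, 95.1 and 178 CPM in WT, 433, 572 and 326 CPM in Fgf23cKO, 468 and 455 CPM in Dmp1KO and 984, 793 and 520 CPM in Dmp1KO/Fgf23cKO cultures, with no overlap between WT and any other group. The log2 fold changes against WT were 1.67 ± 0.34 (adjusted p = 0.00522), 1.77 ± 0.36 (adjusted p = 0.00553) and 2.70 ± 0.34 (adjusted p = 5.61e-05), and each held in all of the 25 or 26 alternative settings run for it. These 3 comparisons share the WT cultures, which held 22, 6 and 21 Atf5 UMIs, and are not independent. Phgdh was higher in Fgf23cKO than in WT cultures (104, 20.1 and 33.8 against 10.3, 15.8 and 8.47 CPM; 2.68 ± 0.93, adjusted p = 0.0723), on 1 UMI in each WT culture, and 7 of 23 alternatives lost this call. Thus 2, 1 and 1 genes were higher in Fgf23cKO, Dmp1KO and Dmp1KO/Fgf23cKO cultures than in WT, where 9.82%, 8.54% and 16.7% of 4845 genes were. Between Dmp1KO/Fgf23cKO and Dmp1KO 0 of the 5 genes passed by edgeR or by DESeq2, against 4.29% of all genes in either direction, and 1, Atf5, had an unadjusted p under 0.05 (0.93 ± 0.33, adjusted p = 0.164). Library totals without TMM factors moved the median of all genes by -0.42 and -0.74 in Fgf23cKO and Dmp1KO/Fgf23cKO against WT, smaller than the Atf5 differences.

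Fibroblastic stromal-like cells, which expressed Col3a1 and Timp3, had 14 to 43 cells per culture. Atf5 was at 45.9, 28.5 and 49.4 CPM in WT, 121, 49.5 and 93.6 CPM in Fgf23cKO and 99.2 and 87.1 CPM in Dmp1KO cultures, higher in both (1.06 ± 0.34, adjusted p = 0.0885; 1.11 ± 0.37, adjusted p = 0.0915). Phgdh was higher in Fgf23cKO cultures (70.1, 50.0 and 39.7 against 33.4, 17.5 and 16.8 CPM; 1.27 ± 0.41, adjusted p = 0.0882). Asns was higher in Dmp1KO cultures (67.5 and 48.8 against 27.8, 30.7 and 32.6 CPM; 0.92 ± 0.27, adjusted p = 0.0574). Thus 2 of 10 genes were higher in each comparison, where 5.99% and 5.92% of 11665 genes were, and leaving out single cultures took each count to 0. No gene passed between Dmp1KO/Fgf23cKO and WT (15.8% of all genes in either direction) or Dmp1KO (0.952%) by edgeR or DESeq2, and 2 genes and 0 genes had an unadjusted p under 0.05.

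Osteoblast-like cells, which expressed Bglap, Ibsp and Col1a1, could be compared only between Dmp1KO/Fgf23cKO and WT, since the Dmp1KO cultures held 2 and 8 of them and the Fgf23cKO cultures 16, 7 and 5. Of 9 genes tested 2 were higher and 1 lower, against 13.6% of 8583 genes in either direction. Phgdh was at 49.5, 33.6 and 24.4 CPM in WT and 86.6, 77.7 and 50.9 CPM in Dmp1KO/Fgf23cKO cultures (0.98 ± 0.27, adjusted p = 0.0505), and Sesn2 at 9.90, 5.17 and 12.2 against 30.6, 19.4 and 19.7 CPM (1.08 ± 0.36, adjusted p = 0.0881). Ddit3 was at 208, 25.9 and 46.5 CPM in WT and 30.6, 26.6 and 17.3 CPM in Dmp1KO/Fgf23cKO cultures (-1.95 ± 0.55, adjusted p = 0.0505), groups that overlap and of which WT culture 1 stands apart. The count of 3 went to 1 without any single WT culture or without Dmp1KO/Fgf23cKO culture 1, and to 0 without Dmp1KO/Fgf23cKO culture 2. Whether any response in stromal cells differed from that in macrophage-like cells was not tested.

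**Figure D4:**
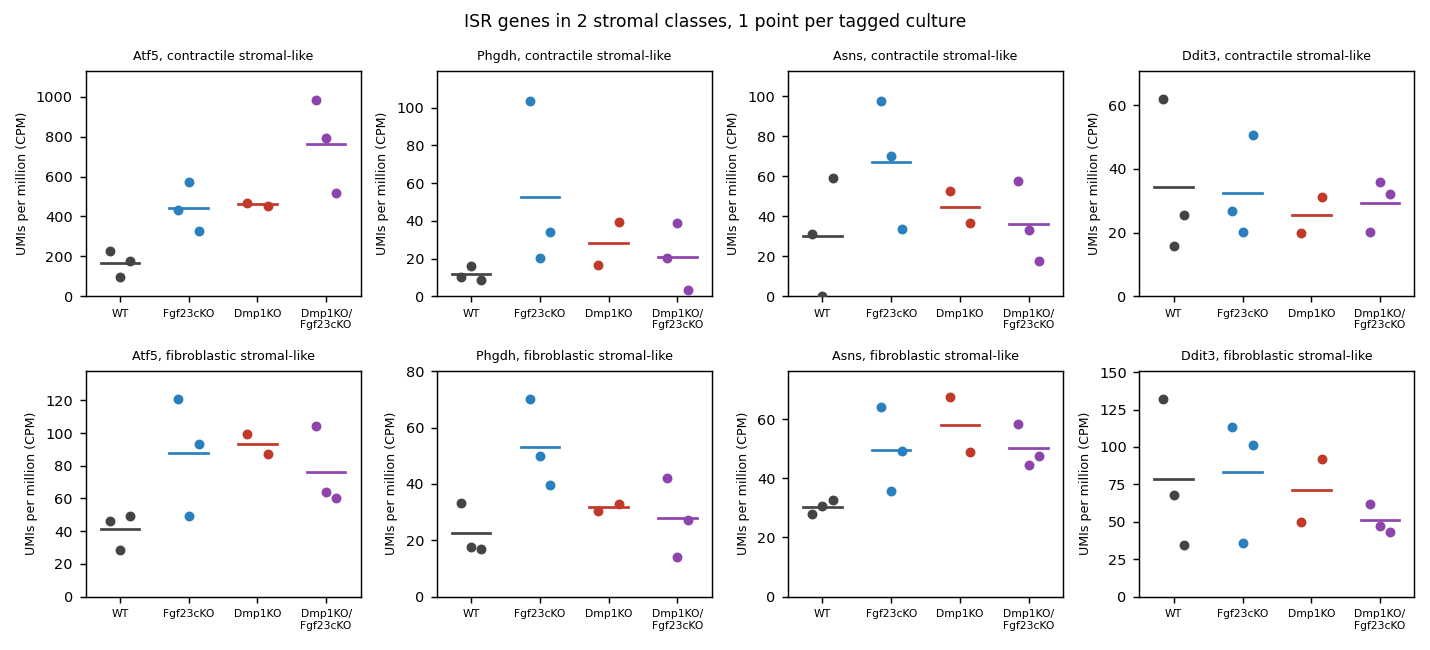
CPM of Atf5, Phgdh, Asns and Ddit3 in contractile (top) and fibroblastic (bottom) stromal-like cells of each of the 11 tagged cultures; points are cultures and bars are group means. Atf5 in contractile cells lies between 95.1 and 228 CPM in WT and between 326 and 984 CPM in the 8 other cultures.

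Co-expression was described in single macrophage-like cells thinned to 5000 UMIs each, which left out 148, 346 and 247 WT cells and 0 to 19 cells of every other culture. Over the 45 pairs of genes the median Spearman's rho was 0.05 as a median over cultures (0.05 to 0.11 in single cultures). Only 15 pairs were above 0.1, and 10 of these were positive in all 11 cultures. The pairs that stood out joined the transcription factors and Trib3: Ddit3 with Trib3 (0.31, range 0.16 to 0.37), Atf4 with Ddit3 (0.24, 0.13 to 0.38) and Atf4 with Trib3 (0.20, 0.14 to 0.25). Asns followed Ddit3 (0.17, 0.07 to 0.20) and Atf4 (0.12, 0.04 to 0.20). Psat1 did not go with Ddit3 (-0.01), Atf4 (-0.01) or Trib3 (-0.01), nor with Phgdh, its neighbour in serine synthesis (-0.01). Correlations near 0 in such sparse counts are no finding. For comparison, pairs of 1 of the 10 genes with 1 endoplasmic reticulum gene had a median of -0.02 (-0.04 to -0.01). Trib3 had a UMI in 8.24 to 23.1% of thinned cells with Ddit3 and in 0.217 to 2.93% of those without, over the 11 cultures. Markers of osteoblasts were counted in these macrophage-like cells at the levels given above, and no class known to lack the 10 genes was at hand, so the share of cells with a UMI that free RNA gives to them was not measured. These correlations carry no p, and the cells of a culture share its library.

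**Figure D5:**
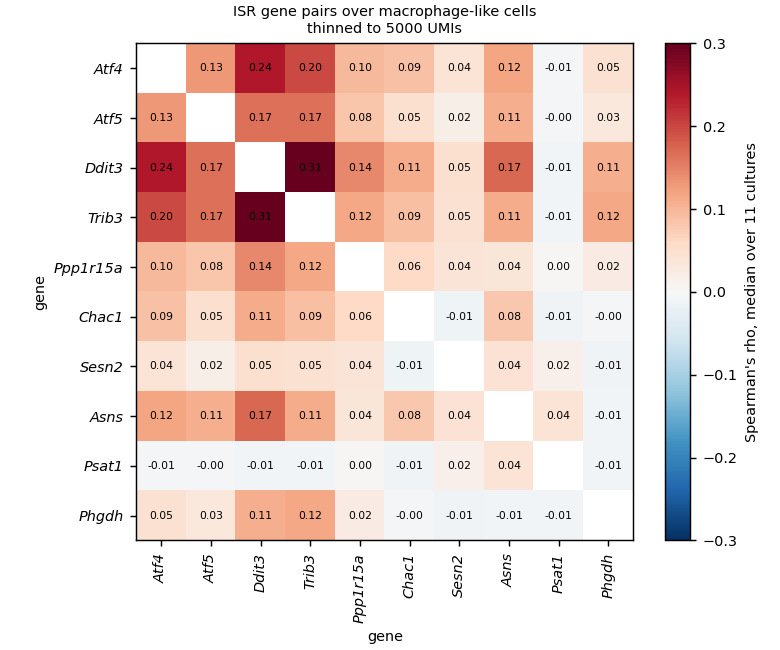
Spearman's rho of thinned UMI counts (5000 UMIs per cell) for each pair of the 10 genes over macrophage-like cells, as the median over 11 tagged cultures. The block of Atf4, Ddit3 and Trib3 is highest, from 0.20 to 0.31, and the row of Psat1 stays near 0.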

How the data were processed

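Counts were UMI counts per gene and cell in the matrices the authors deposited, made with Cell Ranger 7.0.1 on mm10 per the labels and methods, with multiplets across tags already removed. No doublet caller was run here, and multiplets within a culture carry 1 tag and remain. Of 16 samples 15 were used (17793 cells). Tagged cultures 1 to 3 were the replicates, and sample 4 of each genotype, read as untagged cells of the same pool, was used only for clustering and 1 alternative. No barcode was shared between samples of a genotype and 35 between samples of different genotypes.

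Cells were normalized with sctransform 0.4.2 and clustered with Seurat 5.3.0 at resolution 0.8 (R 4.3.3). Clusters took a class from fixed markers only if at least 3 were detected, no other class led the 10 leading genes, and a cluster under 0.333 of its samples' median UMIs had a marker of its own among them. Macrophage clusters 2 (a marker of another class) and 5 and 12 (depth) did not pass and held 12.71% of WT, 18.8% of Fgf23cKO, 28.23% of Dmp1KO and 12.29% of Dmp1KO/Fgf23cKO cells grouped by macrophage markers. Rebuilt names may differ from the study's. Raw counts were summed per culture and class over at least 10 cells and tested with edgeR 4.0.16 (quasi-likelihood, TMM factors, filterByExpr, genotype as the only term, Benjamini-Hochberg over all genes, threshold 0.1 after the study). DESeq2 1.42.0, other filters, normalizations, resolutions and thinning were alternatives. Scripts were tested on simulated counts. The 10 genes were named throughout, with up to 3 called genes of each list by size of change. Genes and lists were chosen with earlier results of these data known. Deviations from group means correlated at -0.12 to 0.06 over 15 pairs of the same replicate number and at -0.08 to 0.12 over 30 other pairs. With 2 or 3 cultures per genotype these values cannot settle whether the numbers pair the cultures.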

Additional observations from a re-analysis of the deposited data

Results flagged for a closer look

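For 9 of the 10 genes the difference between genotypes with and without Dmp1-cre in macrophage-like cells depended on Dmp1 status. The test was of the difference itself, the interaction term of edgeR's fit. On the log2 scale the term was -3.03 ± 0.62 for Phgdh (adjusted p = 0.000824), -2.53 ± 0.44 for Trib3 (adjusted p = 0.000223), -2.48 ± 0.34 for Asns (adjusted p = 2.8e-05) and -1.51 ± 0.26 for Psat1 (adjusted p = 0.000205). It was -1.79 ± 0.23 for Ddit3 (adjusted p = 1.64e-05), -1.72 ± 0.50 for Chac1 (adjusted p = 0.00958), -1.06 ± 0.13 for Atf5 (adjusted p = 1.2e-05), -0.80 ± 0.16 for Atf4 (adjusted p = 0.000611) and -0.45 ± 0.10 for Ppp1r15a (adjusted p = 0.0016). Each genotype was 1 droplet reaction, so these terms compare reactions as well as genotypes.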

How the results depend on the processing

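Limits: depth set which genes could be seen, since Chac1 and Phgdh rested on under 15 UMIs per WT culture in macrophage-like cells, and with cells thinned to 1300 UMIs no member passed the filter on low counts in fibroblastic or osteoblast-like cells. Dmp1KO had 2 cultures, and leaving 1 out assumes that the other varies like the other groups. Where no cause is named, the cause was not tested.

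In macrophage-like cells the counts of genes called (6, 9, 3 and 8 of 10 for Fgf23cKO, Dmp1KO and Dmp1KO/Fgf23cKO against WT and Dmp1KO/Fgf23cKO against Dmp1KO, and 9 for the interaction) ranged over 4 to 8, 8 to 9, 1 to 6, 8 to 9 and 9 to 9 with each culture left out. Without cluster 3, chosen after seeing the data, they were 3, 5, 3, 7 and 5, of both directions. In the same order 2, 4, 2, 2 and 0 were higher and 1, 1, 1, 5 and 5 lower. This tests nothing since Ddit3 and Trib3 help to define that cluster. Thinning to 1300 UMIs, with 7 genes left to test, gave 3 for Dmp1KO/Fgf23cKO against Dmp1KO and 5 for the interaction. Dmp1KO/Fgf23cKO against WT gave 1 at an adjusted p under 0.05 and 6 with no filter on low counts.

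In contractile cells (2, 1, 1 and 0 called) the ranges with each culture left out were 1 to 2, 1 to 1, 1 to 1 and 0 to 0. Fgf23cKO against WT gave 1 at an adjusted p under 0.05, with DESeq2, with library totals only and when thinned. Dmp1KO/Fgf23cKO against WT gave 2 with library totals and 3 at resolution 0.4, and against Dmp1KO 1 with no filter and 1 with untagged sample 4 added. In fibroblastic cells (2, 2, 0 and 0 called) the ranges were 0 to 2, 0 to 2, 0 to 2 and 0 to 0. Both counts of 2 were 0 at an adjusted p under 0.05 and when thinned. Fgf23cKO against WT gave 1 with sample 4 added and 1, a gene that was lower, at resolution 0.4, and Dmp1KO against WT gave 1 when clustered without member and list genes. Dmp1KO/Fgf23cKO against WT gave 3 with no filter, 1 with library totals, 1 with sample 4 and 2 in sums of at least 20 cells, and against Dmp1KO 2 at resolution 0.4. In osteoblast-like cells (3 called) the range was 0 to 3; the count was 0 at an adjusted p under 0.05 and when thinned, 1 with DESeq2, and 5 both with no filter and with sample 4 added. Sums of at least 20 cells gave no value for osteoblast-like cells or for Fgf23cKO against WT in stromal cells, nor did resolution 0.4 for osteoblast-like cells.

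The replicate block gave 6, 9, 4 and 8 calls and 9 for the interaction in macrophage-like cells. It gave 1 in contractile cells for Fgf23cKO against WT, 1 in fibroblastic cells for Dmp1KO/Fgf23cKO against WT, and the main count elsewhere. Whether the numbers pair the cultures is not known. The median co-expression was 0.019 at 2500 UMIs per cell, and its highest single culture was 0.11.

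Directions turned in these cases, all of genes not called in the setting except where cluster 3 was left out, whose values are given without a test. For Sesn2 the interaction was 0.0094 with RLE factors, 0.020 with DESeq2, 0.12 with library totals, 0.0055 with all macrophage clusters, 0.24 without cluster 3 and -0.14 to 0.081 with single cultures left out; Dmp1KO against WT was -0.0087 with library totals and -0.16 without cluster 3, and Dmp1KO/Fgf23cKO against Dmp1KO -0.14 when thinned. For Psat1 Dmp1KO/Fgf23cKO against WT was -0.0096 with sample 4, -0.011 at resolution 1.2, -0.012 when clustered without list genes, -0.092 without cluster 3 and -0.10 to 0.16 with cultures left out. For Ppp1r15a the values without cluster 3 were -0.13, -0.036, -0.0040, 0.032 and 0.16 in the order above, and -0.015 (without WT replicate 3) to 0.096 with cultures left out for Dmp1KO/Fgf23cKO against WT. Without cluster 3 Ddit3 was at -0.32, -0.33 and 0.14 for Fgf23cKO and Dmp1KO against WT and the interaction, Chac1 at -0.37 for Fgf23cKO against WT, Trib3 at -0.034 for Dmp1KO/Fgf23cKO against WT, Atf4 at 0.038 and Atf5 at 0.48 for Dmp1KO/Fgf23cKO against Dmp1KO, and Hspa9 at -0.18. Atf5 was at 0.091 with library totals for the latter, Chac1 for Fgf23cKO against WT at -0.13 (without Fgf23cKO replicate 3) to 0.54 with cultures left out, and Ddit3 at 0.15 for Dmp1KO/Fgf23cKO against WT when thinned. Thinning turned Dele1 (-0.17, Fgf23cKO against WT), Eif2ak4 (-0.061, Dmp1KO against WT) and Eif2ak3 (-0.17, Dmp1KO/Fgf23cKO against Dmp1KO). Of the values of the 10 genes under all alternatives 1463 kept direction and side of the threshold, 106 lost a call, 32 gained one and 36 turned.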
